A study of Mus musculus with 6 samples.

Results

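Interferon-stimulated and double-stranded RNA sensing genes were followed in mouse embryonic stem cells with a disrupted or a mutated Mettl3. They were taken by symbol from the gene count tables: Ifitm1, Ifitm2, Ifitm3, Bst2, Oas1a, Xaf1, Ifih1, Ddx58, Adar and Eif2ak2, which are 10 of the 24984 genes counted. All 10 passed the filter on low counts, as did 15663 genes in all. METTL3 is the methyltransferase that places most N6-methyladenosine (m6A) in messenger RNA, and the study was set up to look at how m6A relates to circular RNA. Total RNA depleted of ribosomal RNA was sequenced as stranded libraries from 3 groups of 2 libraries, all of the line E14TG2a in serum-free N2B27 medium. The KO group is a line in which Mettl3 was disrupted with CRISPR/Cas9. The D395A group is a line in which CRISPR/Cas9-directed integration put the METTL3 D395A substitution, an aspartate to alanine change in the catalytic motif, into the gene. The WT group is the unmodified line. The labels name 1 line per genotype and do not say if its libraries stem from separate cultures. P-values here therefore measure only the spread between these libraries, and the effect of a genotype cannot be told apart from the history of the line that carries it.

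As background, interferon-stimulated genes are switched on when type I interferon binds its receptor, through a short DNA element in their promoters, the interferon-stimulated response element (ISRE). Their products include membrane proteins that hold back viruses, enzymes that are turned on by double-stranded RNA, and the sensors that start interferon production when such RNA appears in the cytoplasm. Embryonic stem cells are known for a weak interferon response and for a standing expression of some of these genes, the Ifitm genes among them. ADAR edits adenosine to inosine in double-stranded RNA and keeps the cell's own RNA from being sensed, and m6A on a cell's own transcripts has been linked to the same protection in mouse blood progenitors.

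The promoters are shown for exact matches to the ISRE core. Such a search does not settle which genes carry a working ISRE. Windows of 300 bases, 250 before and 50 after each annotated start, came from RefSeq (build GRCm38.p6) and were found for all 10 genes. The ISRE core was searched on both strands as a pair of GAAA half-sites separated by NN, where N is any base. It lies in 3.44% of 32851 such windows. A match was found for 7 of the 10 genes, and none in these windows of Ifitm1, Xaf1 and Adar. Near-matches were not counted: a window of Adar holds gaaagtgaac and that of Xaf1 gaaacgaaa. The window of Ddx58 also holds gaaacgaaa, before its annotated start. The only Ifitm1 window, chr7:140967826-140968125, lies inside the span of the gene given below. The bases before the start of that span were not searched. The lines below run 5′ to 3′ on the strand of the gene, with 20 bases on each side of the match where the window allows. Capitals mark the match. In Bst2 and Oas1a 2 matches overlap, Ifitm3 has 2 that do not, and in Ddx58 the match reads on the opposite strand.
Ifitm2, chr7:140955978-140956027 (-): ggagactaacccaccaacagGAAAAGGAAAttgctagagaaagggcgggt
Ifitm3, chr7:141010696-141010762 (-): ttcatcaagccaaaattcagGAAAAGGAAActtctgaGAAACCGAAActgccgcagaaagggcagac
Bst2, chr8:71537567-71537622 (-): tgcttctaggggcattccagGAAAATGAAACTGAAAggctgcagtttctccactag
Oas1a, chr5:120907510-120907565 (-): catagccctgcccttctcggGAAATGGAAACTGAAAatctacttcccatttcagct
Ifih1, chr2:62646206-62646243 (-): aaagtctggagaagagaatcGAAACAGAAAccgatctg
Ddx58, chr4:40239794-40239843 (-): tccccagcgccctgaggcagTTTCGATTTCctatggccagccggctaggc
Eif2ak2, chr17:78882525-78882574 (-): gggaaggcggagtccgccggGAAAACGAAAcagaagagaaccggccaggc

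Libraries held 22859491 to 40476809 gene counts, with the lowest total in D395A replicate 1 and the highest in WT replicate 1. A level below is in CPM, counts relative to the size of the library, after scaling by trimmed means (TMM), and 1 count is worth 0.0246 to 0.0426 CPM depending on the library. Mettl3 stood at 7.82 and 6.16 CPM in KO cells and at 21.1 and 23.4 CPM in D395A, against 28.5 and 31.5 CPM in WT. Of Mettl3's exon bases, 18.38% overlap Tox4 on the opposite strand, and the effect of this overlap on its counts was not tested. Rn45s, a ribosomal RNA precursor, accounted for 16.7% and 15.7% of the gene counts of KO and 14.3% and 13.9% in D395A, against 10.8% and 11.2% in WT. Reads that matched no counted feature made up 31.1% and 22.3% of a table's total in KO and 37.3% and 33.8% in D395A. In WT they made up 30.2% and 30.2%. KO replicate 2 had the lowest of these shares and D395A replicate 1 the highest. The part of these shares in the results was not tested. Counts over a whole gene do not read the D395A substitution itself. Most of the transcriptome differed between the lines, and 66.2% of the genes tested passed an adjusted p of 0.05 in KO against WT and 70.3% in D395A against WT. Genes of chromosomes 8 and 11 were shifted downward in both lines. In KO the median log2 fold change was -0.48 on chromosome 8 and -0.42 on chromosome 11, against 0.01 over all genes. In D395A the medians were -0.35 and -0.49, against 0.02 over all genes. Bst2 lies on chromosome 8 and Xaf1 on chromosome 11, so their values are given with this shift beside them.

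**Figure D1:**
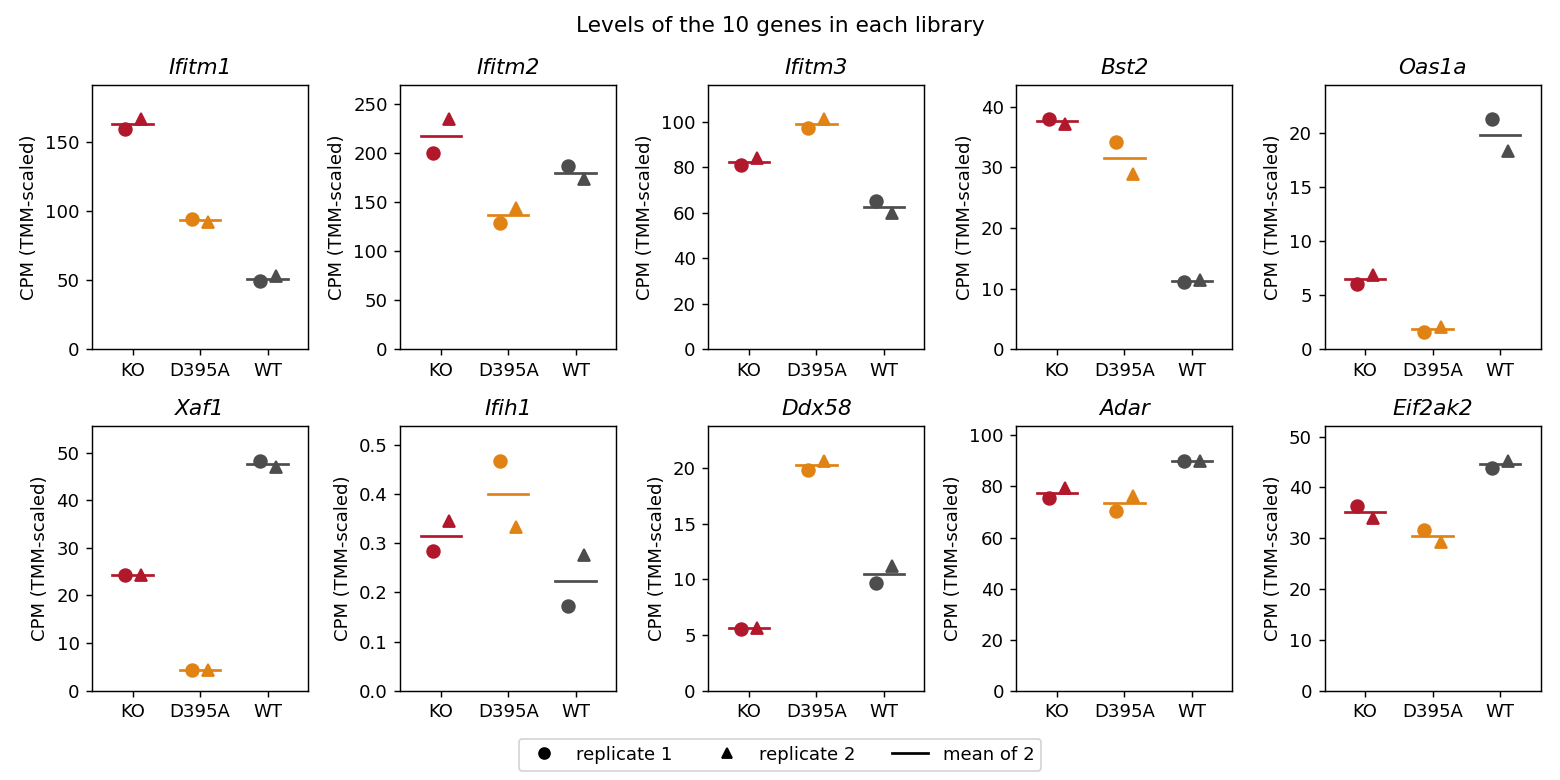
Level of each of the 10 genes (y axis, TMM-scaled CPM, linear from 0) in KO, D395A and WT (x axis); each point is 1 library and each bar the mean of 2. Ifitm1 is highest in KO, Oas1a and Xaf1 are lowest in D395A, and Ddx58 stands lowest in KO and highest in D395A.

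Set against each other per length of exon, the 10 genes spanned a wide range in every group. In KO the mean RPKM (CPM per kilobase of exon) was 332 for Ifitm2, 149 for Ifitm1, 122 for Ifitm3, 41.6 for Bst2, 9.54 for Adar, 6.89 for Eif2ak2, 5.16 for Xaf1 and 3.43 for Oas1a, 0.796 for Ddx58 and 0.0386 for Ifih1. No neighbours in that order overlapped in their library values. In D395A the order was Ifitm2 at 209, Ifitm3 at 146, Ifitm1 at 85.2, Bst2 at 34.9, Adar at 9.04, Eif2ak2 at 5.97, Ddx58 at 2.88, Oas1a at 0.988, Xaf1 at 0.927 and Ifih1 at 0.049 RPKM, with Oas1a and Xaf1 overlapping. In WT it was Ifitm2 at 275, Ifitm3 at 92.4, Ifitm1 at 46.9, Bst2 at 12.5, Adar at 11.1, Oas1a at 10.5, Xaf1 at 10.2, Eif2ak2 at 8.72, Ddx58 at 1.48 and Ifih1 at 0.0274 RPKM. There Oas1a overlapped both Adar and Xaf1. The Ifitm genes thus led in all 3 groups and Ifih1 was last, while Oas1a and Xaf1 stood next to Adar only in WT.

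The 3 Ifitm genes encode small membrane proteins that block the fusion of incoming viruses, and they lie within 55.9 kb of chromosome 7 (GRCm38). Ifitm1 (chr7:140967221-140969825, + strand) had 159 and 166 CPM in KO cells and 94.1 and 92.4 CPM in D395A, against 49.6 and 52.9 CPM in WT. The 3 groups did not overlap, with KO at the top. Ifitm1 rose 3.18-fold in KO (log2 1.67 ± 0.06, SE; adjusted p = 3.8e-10 by edgeR's quasi-likelihood test with Benjamini-Hochberg adjustment) and 1.82-fold in D395A (log2 0.86 ± 0.06, adjusted p = 1e-07). All further adjusted p-values come from this test.

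Ifitm3 (chr7:141009586-141010770, - strand), which also marks the forming germ line in the mouse embryo, had 81 and 84.1 CPM in KO cells and 97.4 and 101 CPM in D395A, against 65.1 and 60.1 CPM in WT. It too rose in both lines, by 1.32-fold in KO (log2 0.40 ± 0.06, adjusted p = 0.00013) and by 1.58-fold in D395A (log2 0.66 ± 0.06, adjusted p = 1.3e-06), but here D395A was the highest group. Ifitm2 (chr7:140954837-140955987, - strand) went opposite ways. It had 201 and 234 CPM in KO cells and 129 and 145 CPM in D395A, against 187 and 173 CPM in WT. Its rise in KO was 1.21-fold (log2 0.27 ± 0.08, adjusted p = 0.012), and it did not pass when KO replicate 2 (0.16, adjusted p = 0.151) or WT replicate 2 (0.22, adjusted p = 0.148) was left out. In D395A it fell, to a level 1.31-fold lower than in WT (log2 -0.39 ± 0.08, adjusted p = 0.0011). Of the stretches of 50 bases in Ifitm2's exons, 48.51% also occur in other annotated genes, and 36.14% occur in Gm45717, a model that overlaps it on the same strand and is not among the counted symbols. The effect of the shared stretches on its counts was not tested. For Ifitm1 and Ifitm3 the shared portions are 5.02% and 10.02%.

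The make-up of the family's RNA therefore differed. Summed over the 3 genes, the level was 441 and 485 CPM in KO cells and 321 and 338 CPM in D395A, against 302 and 286 CPM in WT. Ifitm1 made up 36.1% and 34.3% of this sum in KO and 29.3% and 27.3% in D395A, against 16.5% and 18.5% in WT. Ifitm2 made up 45.5% and 48.3% in KO and 40.3% and 42.8% in D395A, against 61.9% and 60.6% in WT. Ifitm3 held 18.4% and 17.3% in KO and 30.4% and 29.9% in D395A, against 21.6% and 21% in WT. Ifitm2 was the largest part in every library, and its share was lower in every KO and D395A library than in either WT library.

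**Figure D2:**
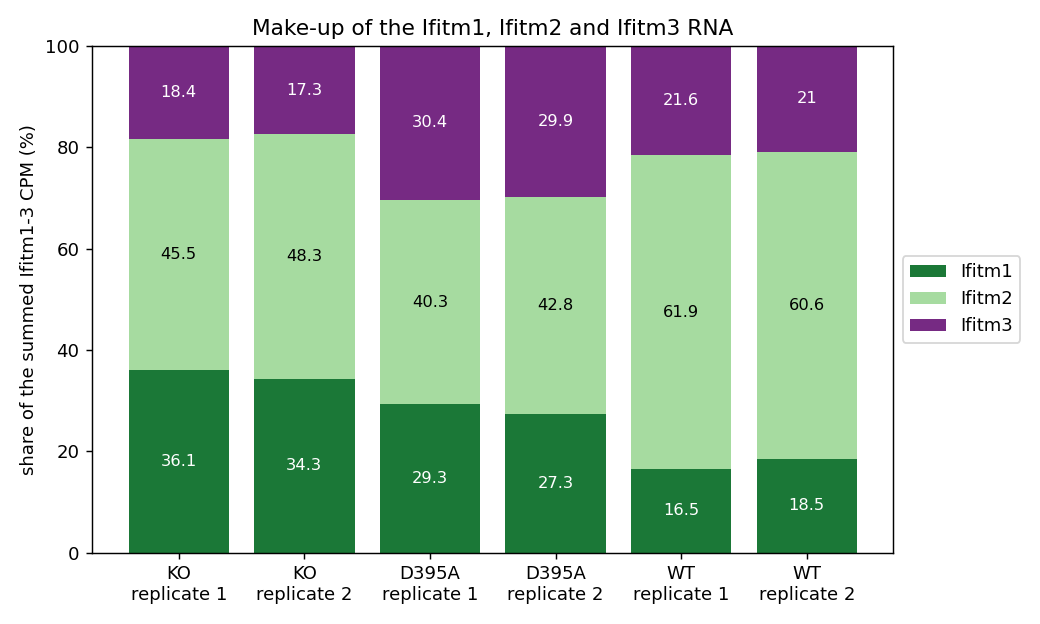
Share of the summed Ifitm1, Ifitm2 and Ifitm3 CPM (y axis, %) held by each gene in each of the 6 libraries (x axis). Ifitm1 holds 34.3% to 36.1% in KO, 27.3% to 29.3% in D395A and 16.5% to 18.5% in WT.

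Bst2, or tetherin (chr8:71534255-71537456, - strand), ties budding virus particles to the cell surface. It had 37.9 and 37.2 CPM in KO cells and 34.1 and 28.9 CPM in D395A, against 11 and 11.5 CPM in WT. Every library of both mutant lines was above every WT library. Bst2 rose 3.34-fold in KO (log2 1.74 ± 0.09, adjusted p = 4.7e-09) and 2.79-fold in D395A (log2 1.48 ± 0.09, adjusted p = 2e-08). In KO, 8.09% of all tested genes had a higher fold change. Its rise ran against its surroundings. Within 1 Mb, 36 of 58 tested genes fell and 4 rose in KO (median log2 fold change -0.63), and 32 fell and 10 rose in D395A (median -0.43). With TMM factors computed within each chromosome, the log2 fold change of Bst2 was 2.17 in KO and 1.82 in D395A.

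Oas1a and Xaf1 were the members with the largest falls. Oas1a (chr5:120896256-120907521, - strand) makes the 2-5A messenger that switches on RNase L when it binds double-stranded RNA. It had 6.06 and 6.88 CPM in KO cells and 1.62 and 2.11 CPM in D395A, against 21.3 and 18.4 CPM in WT. The 3 groups were separate, with D395A at the bottom. Oas1a was 3.06-fold lower in KO (log2 -1.61 ± 0.13, adjusted p = 2e-07) and 10.4-fold lower in D395A (log2 -3.38 ± 0.15, adjusted p = 1.4e-09). Of its stretches of 50 bases, 57.57% also occur in Oas1g, a close paralog, so the counts of these genes may not be independent. The effect of the shared stretches on the counts was not tested. Oas1g moved the same way, with 1.96 and 2.33 CPM in KO cells and 0.766 and 0.693 CPM in D395A, against 12.5 and 14.3 CPM in WT.

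Xaf1 (chr11:72301629-72313733, + strand) encodes a protein that promotes cell death by opposing the caspase inhibitor XIAP. It had 24.2 and 24.2 CPM in KO cells and 4.26 and 4.44 CPM in D395A, against 48.3 and 46.9 CPM in WT. It was 1.97-fold lower in KO (log2 -0.98 ± 0.07, adjusted p = 6.8e-08) and 10.9-fold lower in D395A (log2 -3.45 ± 0.09, adjusted p = 1.1e-11). In D395A, 2.04% of all tested genes had a lower fold change than Xaf1, and 2.14% a lower one than Oas1a. Genes around Xaf1 also fell. Within 1 Mb, 22 of 33 tested genes fell and 2 rose in KO (median -0.62), and 23 fell and 1 rose in D395A (median -0.67). Scaled within chromosomes, the log2 fold change of Xaf1 shrank to -0.56 in KO (adjusted p = 1.28e-05) and was -2.98 in D395A (adjusted p = 6.76e-11).

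**Figure D3:**
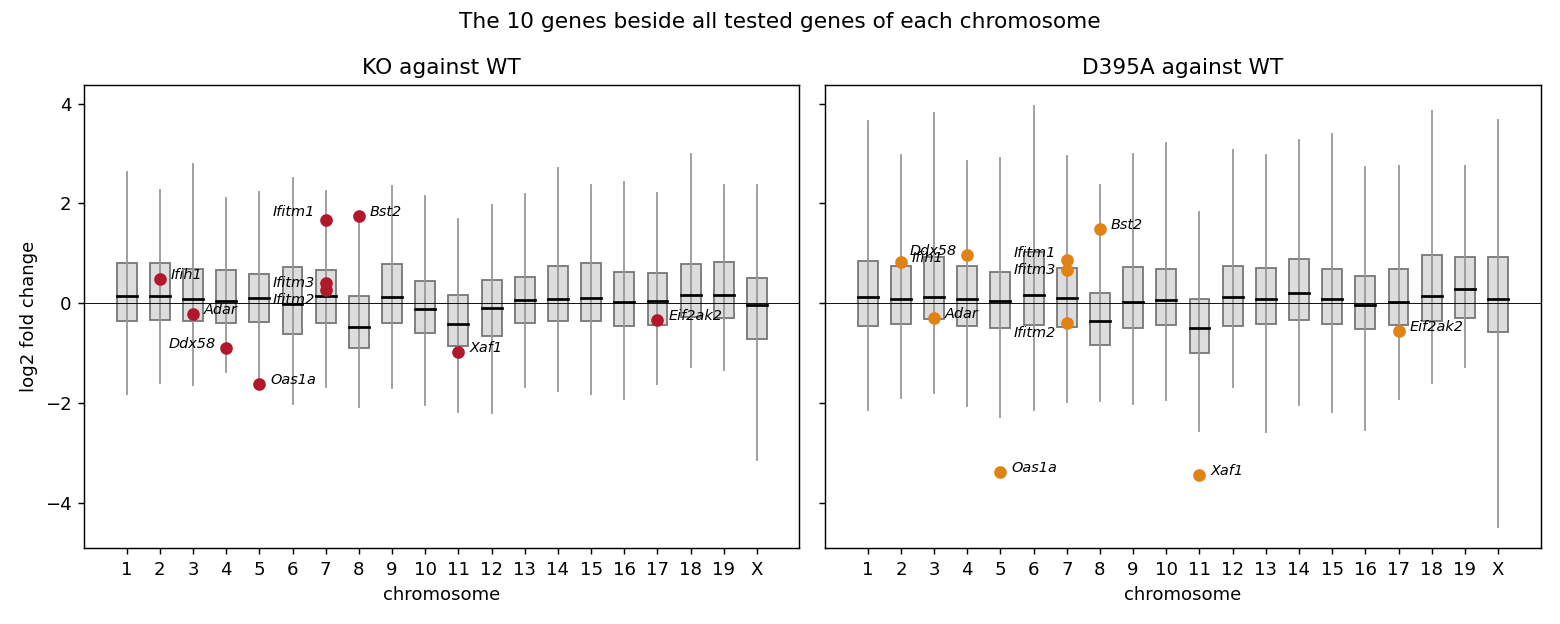
Log2 fold change against WT (y axis) of the 10 genes (points) beside all tested genes of each chromosome (x axis; line, 5th to 95th percentile; box, 25th to 75th percentile; black bar, median), for KO on the left and D395A on the right. Bst2 stands above and Xaf1 below the medians of chromosomes 8 and 11, which are themselves below 0.

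The sensors that bind double-stranded RNA in the cytoplasm and signal through MAVS were low. Ddx58 (chr4:40203773-40239828, - strand), which encodes RIG-I, a sensor of short RNA with a 5′ triphosphate, had 5.54 and 5.67 CPM in KO cells and 19.9 and 20.7 CPM in D395A, against 9.68 and 11.2 CPM in WT. WT lay between the mutant lines, which did not overlap with it or with each other. Ddx58 was 1.86-fold lower in KO (log2 -0.90 ± 0.11, adjusted p = 1.5e-05) and 1.95-fold higher in D395A (log2 0.96 ± 0.10, adjusted p = 3.1e-06). Ifih1 (chr2:62595798-62646255, - strand), which encodes MDA5, a sensor of long double-stranded RNA, was near the limit of counting. It had 10 and 12 counts in KO (0.284 and 0.346 CPM) and 11 and 12 counts in D395A (0.468 and 0.333 CPM), against 7 and 10 counts in WT (0.172 and 0.276 CPM). No change of Ifih1 passed the test. Its log2 fold change was 0.49 in KO (95% interval -1.0 to 1.98, adjusted p = 0.54) and 0.82 in D395A (-0.67 to 2.31, adjusted p = 0.3), and these wide intervals rest on 7 to 12 counts per library.

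Adar and Eif2ak2 act on double-stranded RNA that is already there. Adar (chr3:89715022-89753446, + strand) had 75.5 and 79.4 CPM in KO cells and 70.4 and 76.4 CPM in D395A, against 90.1 and 90.1 CPM in WT. It was 1.16-fold lower in KO (log2 -0.22 ± 0.06, adjusted p = 0.0088) and 1.23-fold lower in D395A (log2 -0.29 ± 0.06, adjusted p = 0.0013). The KO call did not pass without KO replicate 1 (-0.18, adjusted p = 0.084), WT replicate 1 (-0.22, adjusted p = 0.0645) or WT replicate 2 (-0.22, adjusted p = 0.0653). Of Adar's exon bases, 16.81% overlap Chrnb2 on the opposite strand, and the interferon-driven p150 isoform cannot be separated in gene counts. Eif2ak2 (chr17:78852564-78882573, - strand) encodes PKR, the kinase that stops translation through eIF2α on binding double-stranded RNA. It had 36.4 and 34 CPM in KO cells and 31.7 and 29.3 CPM in D395A, against 43.9 and 45.3 CPM in WT. All 4 mutant libraries were below both WT libraries. Eif2ak2 was 1.27-fold lower in KO (log2 -0.34 ± 0.07, adjusted p = 0.00085) and 1.47-fold lower in D395A (log2 -0.55 ± 0.07, adjusted p = 1.8e-05).

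**Figure D4:**
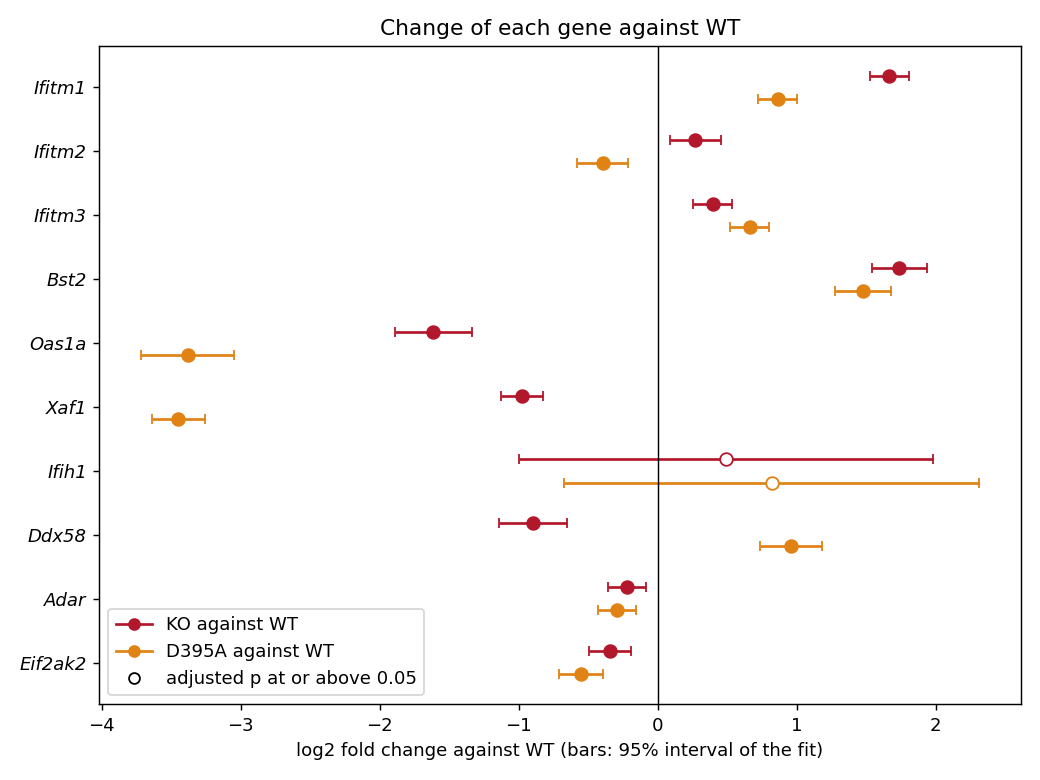
Log2 fold change of each gene (rows) in KO (red) and D395A (orange) against WT (x axis); bars are 95% intervals of the fit and open points have an adjusted p at or above 0.05. Ifitm1, Ifitm3 and Bst2 are right of 0 in both lines, Oas1a, Xaf1, Adar and Eif2ak2 left of it in both, and Ifitm2 and Ddx58 on opposite sides.

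Counted over the 10 genes, 9 changed in KO against WT, 4 up and 5 down, where 66.2% of all tested genes changed (33.6% up and 32.6% down). In D395A against WT 9 changed as well, 4 up and 5 down, where the background was 70.3% (36.3% up and 34% down). The counts are to be read against those shares: most genes of any kind passed the test here. The median log2 fold change of the 10 genes was 0.03 in KO and 0.19 in D395A, against 0.01 and 0.02 over all tested genes. The library values of all 10 genes did not overlap between KO and WT or between D395A and WT, where 83.9% and 85.3% of tested genes did not overlap. Both comparisons use the same WT libraries. Taken as a set, the 10 genes had no common direction in either line.

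The mutant lines were then compared directly, which leaves the WT libraries out of the fold change. Of the 10 genes, 8 differed in D395A against KO, 2 higher and 6 lower, where 50.4% of all tested genes differed (26.5% higher and 23.8% lower). Ddx58 showed the largest excess in D395A (log2 1.86 ± 0.11, adjusted p = 3.1e-08), and Ifitm3 was also higher there (0.27 ± 0.06, adjusted p = 0.0039). Xaf1 (-2.47 ± 0.09, adjusted p = 4.9e-10) and Oas1a (-1.77 ± 0.17, adjusted p = 2.2e-06) had the largest deficits in D395A. Ifitm1 (-0.80 ± 0.06, adjusted p = 3.1e-07) and Ifitm2 (-0.67 ± 0.08, adjusted p = 3e-05) were lower in D395A as well.

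Smaller differences depended on single libraries. Bst2 was lower in D395A than in KO (-0.26 ± 0.08, adjusted p = 0.02), but not past the threshold without KO replicate 1 (-0.25, adjusted p = 0.062) or D395A replicate 2 (-0.14, adjusted p = 0.191). Eif2ak2 (-0.21 ± 0.07, adjusted p = 0.029) did not pass without KO replicate 1 (-0.17, adjusted p = 0.171), D395A replicate 2 (-0.16, adjusted p = 0.159) or WT replicate 2 (-0.21, adjusted p = 0.0505). DESeq2 called neither, with adjusted p of 0.0569 for Bst2 and 0.0583 for Eif2ak2. For Adar the difference was -0.07 (95% interval -0.22 to 0.07, adjusted p = 0.36) and for Ifih1 0.33 (-1.13 to 1.78, adjusted p = 0.71). The median over the 10 genes was -0.24, against 0.04 over all tested genes, and 8 of the 10 did not overlap between the lines, where 74.7% of tested genes did not.

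Interferon ligands were at or near 0. Of 21 interferon genes, 20 had no count in KO, 19 none in D395A and all 21 none in WT. Ifnb1, the first type I interferon made on infection, had 0 counts in all 6 libraries, which allows up to 0.0429 CPM in KO, 0.0504 CPM in D395A and 0.039 CPM in WT (3 counts over the group, counting error only). Ifnk had 3 and 0 counts in KO and 8 and 1 in D395A, against 0 and 0 in WT, and Ifna13 had 1 count in D395A. None of the 21 passed the filter for the test. Isg15 and Irf7, common readouts of an interferon response that were picked here after their counts were seen, were also too low to test. Isg15 had 12 counts in KO and 7 in D395A, against 3 in WT, and Irf7 had 12 in KO and 8 in D395A, against 1 in WT. Other interferon-stimulated genes too low to test were mixed. Mx2 had 17 counts in KO and 14 in D395A, against 15 in WT. Sp110 had 5 in KO and 2 in D395A, against 27 in WT, and Epsti1 had 7 and 3, against 2 in WT.

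Genes for interferon receptors and the JAK-STAT pathway below them were measured well, with 17 of 18 tested. In KO 9 rose and 3 fell (median log2 fold change 0.31), where 33.6% of all tested genes rose and 32.6% fell. In D395A 11 rose and 5 fell (median 0.46), where 36.3% rose and 34% fell. Ifngr2, a chain of the interferon gamma receptor, averaged 7.01 CPM in KO cells and 8.52 CPM in D395A, against 1.99 CPM in WT (log2 fold changes 1.81 ± 0.16 and 2.09 ± 0.16, adjusted p = 4.5e-07 and 1.1e-07). The other chain, Ifngr1, rose by 1.32 ± 0.12 in KO (adjusted p = 6.1e-07) and 1.76 ± 0.12 in D395A (adjusted p = 3.7e-08). Il10rb, shared by the receptors of interleukin 10 and interferon lambda, averaged 5.9 CPM in KO cells and 2.39 CPM in D395A, against 1.21 CPM in WT, a change of 2.28 ± 0.27 in KO (adjusted p = 8.1e-06). Irf2, which lies on chromosome 8 and encodes a repressor of interferon-responsive promoters, rose by 2.01 ± 0.30 in KO (adjusted p = 5.9e-05) and 1.81 ± 0.30 in D395A (adjusted p = 0.00014). In D395A against KO, 1 was higher and 5 were lower (median -0.11), where 26.5% of all tested genes were higher and 23.8% lower.

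In the wider sensing pathway, 27 of the 30 genes found in the files were tested, and rises and falls were balanced. In KO 12 rose and 11 fell (median 0.24), beside 66.2% of all tested genes called, and in D395A 11 rose and 11 fell (median 0.06), beside 70.3%. In D395A against KO, 6 were higher and 10 lower (median 0.05), beside 50.4%. Mavs, the mitochondrial adaptor of RIG-I and MDA5, averaged 136 CPM in KO cells and 64.2 CPM in D395A, against 51.2 CPM in WT (1.41 ± 0.06 in KO, adjusted p = 1.4e-09). Irf3, the factor that turns on Ifnb1, averaged 26.4 CPM in KO cells and 27.3 CPM in D395A, against 10.2 CPM in WT (1.38 ± 0.09 and 1.42 ± 0.09, adjusted p = 2.5e-08 and 1.7e-08). Ticam1, the adaptor of TLR3, rose by 1.23 ± 0.10 in KO (adjusted p = 3e-07) and 1.46 ± 0.10 in D395A (adjusted p = 5.5e-08). Among DNA sensors, Aim2 changed by -1.68 ± 0.07 in KO (adjusted p = 4.9e-10) and -0.94 ± 0.06 in D395A (adjusted p = 4.7e-08). Cgas changed by -1.16 ± 0.15 in KO (adjusted p = 1.5e-05) and -1.49 ± 0.15 in D395A (adjusted p = 2e-06).

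Of 59 other interferon-stimulated genes, 45 were tested. In KO 11 rose and 14 fell (median -0.01), with 66.2% of all tested genes called, and in D395A 15 rose and 17 fell (median 0.27), with 70.3% called. In D395A against KO, 16 were higher and 12 lower (median 0.36), with 50.4% called. The named falls were mostly relatives of Oas1a on chromosome 5. Oas1c, which lies in the Oas1 cluster, had 71 and 64 counts in KO and 5 and 3 in D395A, against 275 and 287 in WT (log2 fold change -5.72 ± 0.34 in D395A, adjusted p = 1.3e-08). Oas3 had 10 and 17 counts in KO and 4 and 0 in D395A, against 131 and 97 in WT (-2.92 ± 0.57 in KO, adjusted p = 0.00059; -5.33 ± 0.74 in D395A, adjusted p = 3.4e-05). Oas1g fell by 2.64 on the log2 scale in KO (adjusted p = 1.8e-08) and by 4.21 in D395A (adjusted p = 1.4e-09). Ube2l6, an enzyme that attaches ISG15 to proteins, averaged 0.786 CPM in KO cells and 2.04 CPM in D395A, against 7.74 CPM in WT (-3.29 ± 0.26 in KO, adjusted p = 2e-07).

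The 4 other Ifitm genes were low. In KO 2 rose and 1 fell (median 0.21), in D395A none rose and 2 fell (median -0.97), and in D395A against KO 1 was higher and 2 were lower (median -1.34). The shares called over all tested genes were 66.2%, 70.3% and 50.4%. Ifitm7 averaged 0.372 CPM in KO cells and 0.952 CPM in D395A, against 3.27 CPM in WT (-3.12 ± 0.37 and -1.76 ± 0.34, adjusted p = 9.5e-06 and 0.00052). Ifitm5, a bone gene, averaged 3.09 CPM in KO, against 1.75 CPM in WT (0.82 ± 0.28, adjusted p = 0.019). In D395A it averaged 1.56 CPM and did not pass the test (-0.18 ± 0.29, adjusted p = 0.59).

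**Figure D5:**
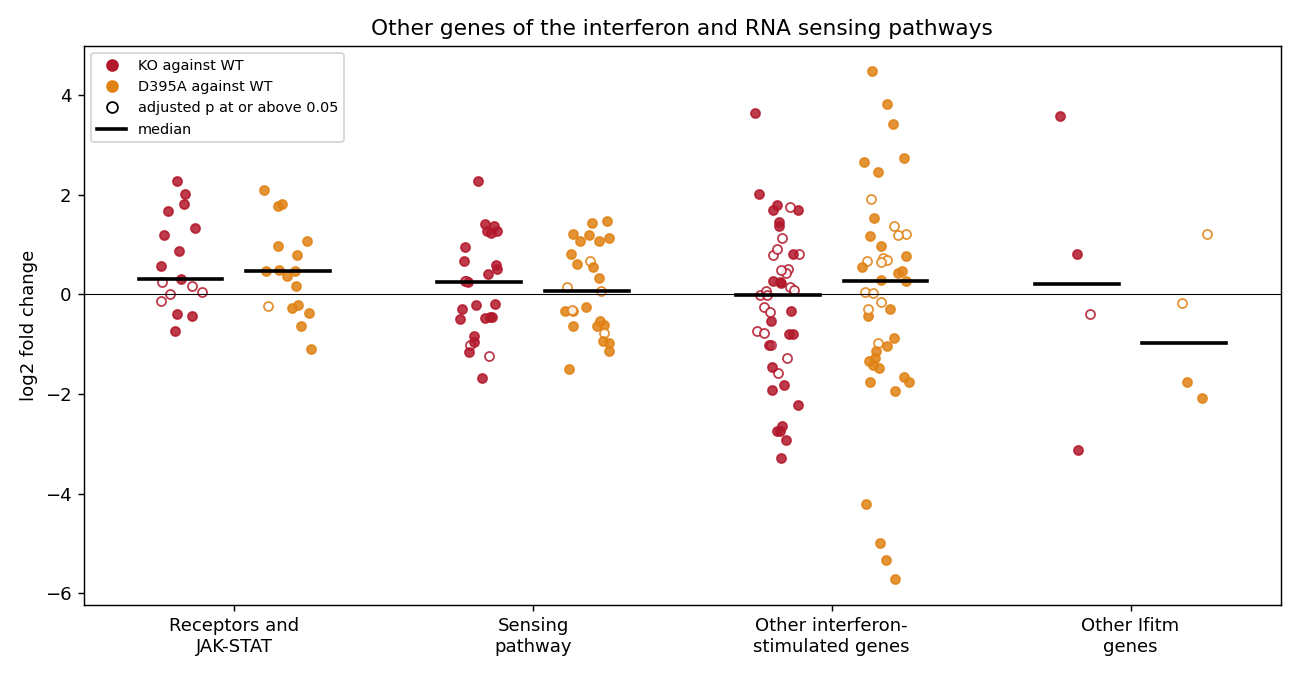
Log2 fold change (y axis) of each tested gene of 4 pathway lists (x axis) in KO (red) and D395A (orange) against WT; open points have an adjusted p at or above 0.05 and black bars are medians. Rises and falls are mixed in the sensing and interferon-stimulated lists, while the receptor list has medians of 0.31 in KO and 0.46 in D395A.

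For each of the 10 genes, the tested gene with the most similar pattern was looked up by the distance between log2(CPM + 0.5) deviations from the mean over the 6 libraries. For Ifitm1 it was Ifnar2, a chain of the type I interferon receptor (distance 0.131), with 21.3 CPM in KO cells and 11.6 CPM in D395A, against 6.67 CPM in WT. For Ifitm2 it was Ly6e, itself inducible by interferon (distance 0.0746), with 200 CPM in KO cells and 124 CPM in D395A, against 165 CPM in WT. Xaf1 was closest to Morc1, which acts in silencing of transposons in the mouse male germ line (distance 0.144), with 80.4 CPM in KO cells and 14.4 CPM in D395A, against 158 CPM in WT. Oas1a was closest to Atp1b2 (0.319), the loosest of the 10 matches. The others were Pik3r3 for Ifitm3 (0.0485), D1Ertd622e for Bst2 (0.156), Fam219a for Ifih1 (0.099), Otub2 for Ddx58 (0.159), Sf3b1 for Adar (0.0486) and Zfp82 for Eif2ak2 (0.0416). Group means of Ifih1, 0.224 to 0.4 CPM, lie below the 0.5 CPM added. That flattens its pattern, so its distance says little. With 3 groups and 6 libraries, close matches are easy to find among 15662 genes.

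Markers of cell types were read beside these values, since in bulk RNA a smaller number of cells of a type and less RNA per cell cannot be told apart. The 8 pluripotency markers summed to 4470 to 4490 CPM in KO cells and 1890 to 1950 CPM in D395A, against 3900 to 3960 CPM in WT. In KO 3 of them rose and 3 fell, and in D395A 7 fell and none rose. None of the 8 was at 0 in any group. In D395A the sum of these markers was below that of WT, as were Oas1a and Xaf1. In KO the sum was above that of WT, but Nanog alone averaged 1580 CPM there, against 920 CPM in WT. Tdgf1 (499 against 774 CPM), Zfp42 (361 against 449 CPM) and Utf1 (39 against 68.4 CPM) were lower in KO than in WT. Oas1a and Xaf1 were lower in KO too. The part of the pluripotency markers in the falls of these 2 genes was not tested. The 8 immune markers summed to 2.79 to 3.2 CPM in KO cells and 3.99 to 4.39 CPM in D395A, against 5.73 to 6.69 CPM in WT, with 1, 1 and 4 of them at 0. Of the 2 tested, both fell in KO, and 1 rose and 1 fell in D395A. Ptprc, present on all white blood cells, had 1 count in D395A and none in KO or WT.

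The other marker lists had lower sums in both mutant lines than in WT, but in each list a single gene held much of the WT sum and other members rose. The 8 germ cell markers summed to 168 CPM in both KO libraries and 199 to 216 CPM in D395A, against 313 to 335 CPM in WT, where Dazl alone averaged 141 CPM. In KO 1 rose and 5 fell, and in D395A 3 rose and 4 fell. Sums of the 8 extraembryonic endoderm markers were 182 to 183 CPM in KO cells and 83.1 to 90.5 CPM in D395A, against 224 to 229 CPM in WT, where Lama1 averaged 207 CPM. In each line 3 of 7 tested rose and 3 fell, and those that rose were Dab2, Foxa2 and Col4a1. Those of the 6 endothelial markers were 116 to 119 CPM in KO cells and 57.4 to 67.4 CPM in D395A, against 293 to 294 CPM in WT, where Pecam1 averaged 280 CPM. In each line Pecam1 fell while Cdh5, Tie1 and Tek rose, of 5 tested. The 8 fibroblast or feeder markers summed to 22.3 to 22.5 CPM in KO cells and 11.5 to 12 CPM in D395A, against 28.1 to 28.2 CPM in WT, where Pdgfrb averaged 22.2 CPM. Of 5 tested, 1 rose and 2 fell in KO, and 2 rose and 3 fell in D395A. The part of these cell types in the values of the 10 genes was not tested.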

How the data were processed

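The authors deposited 1 table of raw read counts per gene symbol and library. Per the submitters' processing notes, Trimmomatic 0.36, STAR 2.7, HTSeq 0.11.2 and the build mm10 were used. How strand was set in counting, and which annotation was counted, is not given in the sources used here. HTSeq's summary lines, 29% to 44.2% of each table's total, were left out. The 10 genes, the pathway and marker lists and the tests were chosen with earlier results of these data known.

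The test was edgeR's quasi-likelihood F test (edgeR 4.0.16, R 4.3.3) after filterByExpr (minimum count 10) and TMM scaling. One model without covariates took in the 6 libraries (3 residual degrees of freedom, biological coefficient of variation 6%). P-values were adjusted by Benjamini-Hochberg over the 15663 genes kept, with 0.05 as the threshold. The code was tested on simulated data. Libraries of a group differed by more than sampling noise (chi-square per degree of freedom 6.48 in KO, 11.1 in D395A, 3.19 in WT). Same-numbered libraries did not deviate together, so no pairing was used.

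Positions, exon lengths and shared 50-base stretches came from GENCODE M21 (GRCm38), in which 97.89% of symbols were found. Symbols absent from the files, among them the aliases of 2 sensing genes, were not analysed here. RPKM used the union of exons. Named beside the 10 genes and Mettl3 are, from each list with calls, the 3 called genes with the largest absolute log2 fold change in each comparison with WT among genes averaging at least 1 CPM. The gene closest in pattern to each of the 10 is named too. Alternatives were DESeq2 1.42.0, limma-voom (limma 3.58.1), RLE factors, TMM factors within each chromosome, other filters, a robust fit, only the libraries compared, a replicate block, Rn45s left out, and each library left out.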

Additional observations from a re-analysis of the deposited data

Results flagged for a closer look

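The direct test of D395A against KO singled out 8 of the 10 genes, whose changes against WT differ between the mutant lines. Given as the log2 change in D395A minus that in KO, the difference was 1.86 for Ddx58 and 0.27 for Ifitm3, which were higher in D395A. It was -2.47 for Xaf1, -1.77 for Oas1a, -0.8 for Ifitm1, -0.67 for Ifitm2, -0.26 for Bst2 and -0.21 for Eif2ak2, which were lower in D395A. Ddx58 and Ifitm2 also passed the test against WT in opposite directions in the 2 lines. The differences of Bst2 and Eif2ak2 were not called by DESeq2 or with certain libraries left out. Which of these differences belong to the D395A substitution and which to the separate history of each line cannot be told apart, with 1 line per genotype.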

How the results depend on the processing

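Under 16 alternatives, 477 values of the 10 genes were recomputed: 465 kept their direction and their side of the threshold, 12 fell below it and none reversed. Those 12 are the Adar and Ifitm2 calls in KO against WT and the Bst2 and Eif2ak2 calls in D395A against KO, given with their results. Of the 10 genes, 7 to 9 were called in KO against WT, 9 in D395A against WT and 6 to 8 in D395A against KO when each library was left out, and DESeq2 called 6 in the last. Over all genes those fits called 8523 to 10682, 9398 to 11364 and 6918 to 7151. Fits with 1 library in a group assume that it varies like the others. With the replicate number as a block, 9, 9 and 8 of the 10 genes and 10220, 10843 and 7832 of all genes were called. The numbers did not pair the libraries: deviations of same-numbered libraries correlated at -0.03 for KO with D395A, -0.01 for KO with WT and -0.02 for D395A with WT. Scaling within chromosomes moved Xaf1 in KO to -0.56 and kept its call. A filter of 1 CPM dropped Ifih1, whose 7 to 12 counts per library leave its change undetermined. Of the other lists, the 4 other Ifitm genes gave 1 call in place of 2 in D395A against WT under DESeq2, the block, other filters or without any 1 of 4 libraries. They gave 1 in place of 3 without either WT library in KO against WT, and without D395A replicate 2 or with only the libraries compared in D395A against KO. Without a filter on low counts 1 interferon ligand was called in D395A against WT. Only 2 libraries per group limit every error given.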

Other observations

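Other genes of the listed pathways showed patterns that were picked after their values were seen. Of the MHC class I genes in the interferon-stimulated list, B2m, Tap1, Tap2 and H2-K1 rose in both mutant lines, and Psmb10, a subunit of the immunoproteasome, fell in both (-0.54 in KO and -1.03 in D395A, adjusted p = 0.001 and 6.9e-06 by edgeR). Psmb9 passed the test in neither (-1.01 and -0.29, adjusted p = 0.15 and 0.67). B2m, the constant chain of these molecules, averaged 52.1 ± 0.731 CPM in KO cells and 36.2 ± 1.76 CPM in D395A, against 16.2 ± 0.0703 CPM in WT (SD, n = 2 each; log2 fold changes 1.69 and 1.16, adjusted p = 7.6e-10 and 2.1e-08 by edgeR). Tap1, a chain of the peptide transporter, averaged 10.1 ± 2.16 CPM in KO cells and 19.4 ± 1.19 CPM in D395A, against 2.91 ± 0.216 CPM in WT (1.80 and 2.74, adjusted p = 5.5e-07 and 8.4e-09). Tap2 changed by 2.00 in KO and 2.65 in D395A (adjusted p = 0.0027 and 0.00031), and H2-K1 by 0.23 and 0.43 (adjusted p = 0.011 and 0.00012). Tapbp rose by 0.25 in KO (adjusted p = 0.0061) and fell by 0.30 in D395A (adjusted p = 0.002), and H2-D1 passed the test in D395A (0.76, adjusted p = 0.00072) but not in KO (0.15, adjusted p = 0.43), and was higher in D395A than in KO (0.62, adjusted p = 0.0051).

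The Oas relatives did not all move together. In D395A the listed Oas1, Oas2 and Oas3 genes all fell, while Oasl1 and Oasl2 rose. Among those that fell was Oas1b (-4.99, adjusted p = 0.00028 by edgeR), with 1 and 1 counts in D395A, against 45 and 46 in WT. In KO neither Oas1b (-1.28, adjusted p = 0.083) nor Oas2 (0.42, adjusted p = 0.31) passed the test. Oas2 averaged 1.99 CPM in KO cells and 0.435 CPM in D395A, against 1.48 CPM in WT, and fell in D395A (-1.76, adjusted p = 0.0018 by edgeR). Oasl1, which has no 2-5A activity, had 12 and 11.1 CPM in KO cells and 8.47 and 8.87 CPM in D395A, against 4.4 and 4.52 CPM in WT, and rose in both (1.37 and 0.96, adjusted p = 5.1e-07 and 1.6e-05). Oasl2 had 6 and 17 counts in KO and 60 and 89 in D395A, against 11 and 7 in WT, and rose in D395A (3.41, adjusted p = 0.00014).

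Among genes of interferon signalling, Stat2 fell in KO and D395A (-0.75 and -0.64, adjusted p = 9.3e-07 and 3.5e-06 by edgeR) and Irf9 rose (0.31 and 0.47, adjusted p = 0.0059 and 0.00027). Pnpt1, which encodes a mitochondrial RNA nuclease, averaged 97.1 ± 3.98 CPM in KO cells and 282 ± 10.2 CPM in D395A, against 98.1 ± 1.77 CPM in WT (SD, n = 2 each). Its log2 fold change was -0.01 in KO (adjusted p = 0.85) and 1.52 in D395A (adjusted p = 6.7e-10).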
